A study of Mus with 8 samples.

Results

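The 5 genes described here belong to the activation of minoxidil, to the channels it opens and to the crosslinking of collagen in skin. They are Sult1a1, a sulfotransferase; Abcc9 and Kcnj11, subunits of ATP-sensitive potassium channels; and Lox and Plod2, enzymes that prepare and form collagen crosslinks. They were chosen by name, each represented by the singly named probeset with the highest mean log2 intensity over the arrays. All 5 were measured, out of 14980 genes named in the authors' deposited tables, and all 5 passed the filter on dim genes, which left 11235 for testing. The tissue was skin with hair follicles from male C57BL6 mice, treated on the skin for 20 days after trimming and hair removal. The groups were 1% minoxidil, 1% keratin, 1% microsphere keratin and MilliQ water, the last called untreated here. Per the labels each group held 5 mice, aged 6 weeks before 7 days of acclimatization in the treatment protocol and 7 weeks in the growth protocol. Each group had 2 arrays, numbered 1 and 2. Whether the numbers stand for different animals, for pooled RNA or for the same RNA hybridised again is not in the labels, and a p-value here covers only array-to-array spread, which may be technical.

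Minoxidil is a prodrug in humans: the enzyme encoded by SULT1A1 in the outer root sheath of the hair follicle adds a sulfate group to it, and the sulfate is the form that opens ATP-sensitive potassium channels. Such a channel joins a pore, encoded by Kcnj8 or Kcnj11, with a sulfonylurea receptor, encoded by Abcc8 or Abcc9. Collagen is crosslinked after lysyl hydroxylases, encoded by the Plod genes, hydroxylate its lysines inside the cell and lysyl oxidases, encoded by Lox and its relatives, oxidise lysines and hydroxylysines outside it. In cultured human skin fibroblasts minoxidil is known to lower lysyl hydroxylase activity. Minoxidil was the positive control of the study, and both keratin preparations were set against the same untreated arrays.

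Minoxidil array 1 and untreated array 1 stood apart from the rest. Across probesets, Pearson's r of minoxidil array 1 with the remaining 7 was 0.39 to 0.47, and among those 7 it was 0.89 to 0.99. The beta-actin control probeset at the 3′ end read 47.2 on minoxidil array 1, 656 on untreated array 1 and 1448 to 1883 on the remaining 6. Differences between same-numbered arrays, and minoxidil differences without array 1, are therefore added. Each number 1 difference from untreated uses untreated array 1. The keratinocyte markers of skin were present, Krt5 reading 163 to 581 and Krt14 reading 89.2 to 435 over the 8 arrays. Skeletal muscle genes were also present, as Acta1, the actin of skeletal muscle, read 31.4 in minoxidil array 1 and 353 to 3353 in the other arrays.

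None of the 5 genes passed the test in any comparison. In limma with Benjamini-Hochberg adjustment over 11235 genes, their adjusted p was 1 in all 4 comparisons, the 3 treatments with untreated and microsphere keratin with keratin. The background was 0% of genes called in each of these comparisons, and 0% in the moderated F test across all 4 groups, where the 5 genes also had an adjusted p of 1. An unadjusted p below 0.05 was reached by 50, 46, 10 and 14 genes in the 4 comparisons, and by none of the 5. The 8 lists of related genes used below hold 49 tested genes, and 0 of these reached an unadjusted p below 0.05 in limma in any of the 4 comparisons. With 2 arrays against 2 an exact two-sided permutation test cannot go below p = 0.333, so the genes are described by their values.

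**Figure D1:**
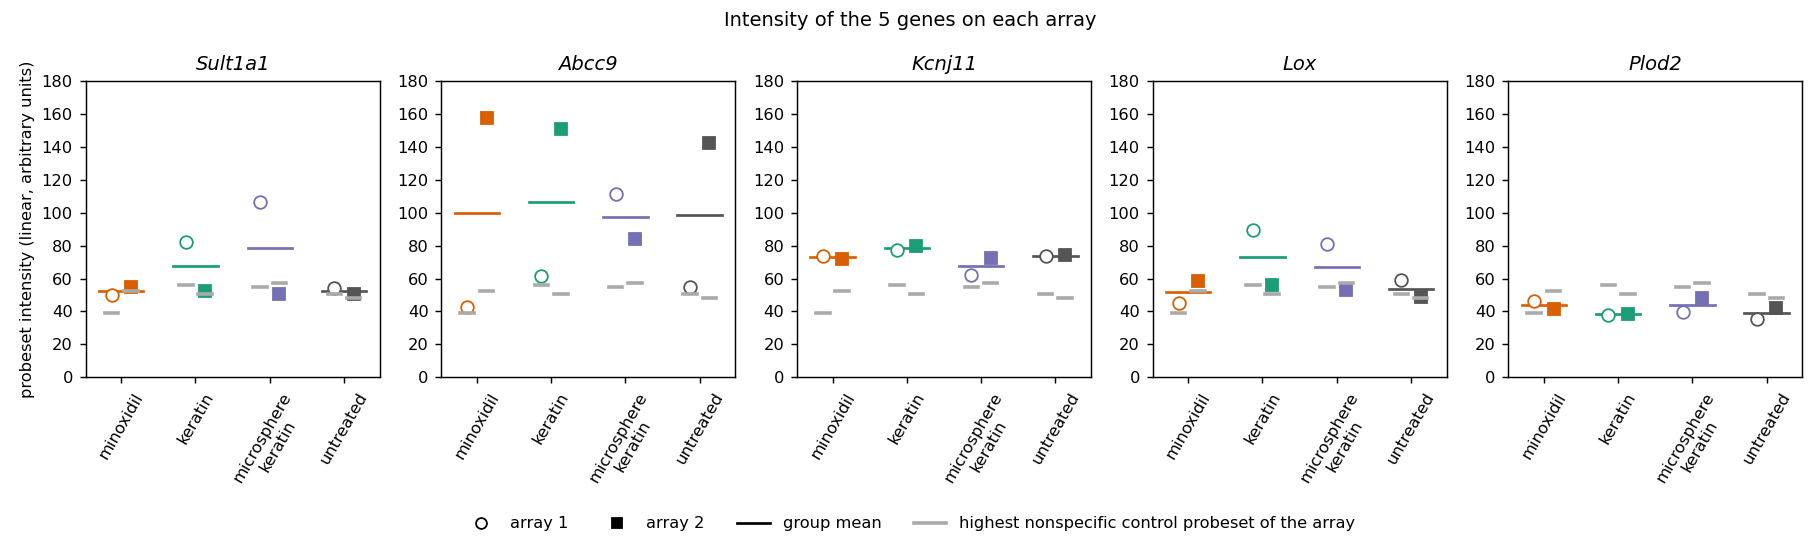
Linear probeset intensity (vertical axis, arbitrary units) of the 5 genes on each array, by group from minoxidil to untreated; open circles are array 1, filled squares array 2, coloured lines the mean of the 2 arrays, and grey bars the highest nonspecific control probeset of that array. Abcc9 spreads from 42.8 to 157 within the minoxidil group alone, whereas Kcnj11 stays between 62.2 and 79.6 over all 8 arrays and Plod2 between 35.4 and 48.2.

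Sult1a1 was highest on 1 array of each keratin group and nearly level on the other 6 arrays. On arrays 1 and 2 its intensity was 50.3 and 55.0 in minoxidil skin, 82.3 and 52.6 in keratin skin and 106.8 and 50.9 in microsphere keratin skin, against 54.2 and 50.6 in untreated skin. The high values were those of keratin array 1 and microsphere keratin array 1, and every treated group overlapped with the untreated one. On the other 6 arrays the highest nonspecific control probeset read 38.9 to 57.0. Sult1a1 lay close to it on all of these but minoxidil array 1, and below it on microsphere keratin array 2. The minoxidil difference from untreated was 0.005 on the log2 scale (SE 0.38, 95% interval -0.85 to 0.86), and 0.07 without minoxidil array 1. For keratin it was 0.33 (SE 0.38, interval -0.53 to 1.19), a 1.26-fold higher mean, made up of 0.60 between the number 1 arrays and 0.06 between the number 2 arrays, and it was 0.005 without keratin array 1. For microsphere keratin it was 0.49 (SE 0.38, interval -0.37 to 1.35), a 1.41-fold higher mean, made up of 0.98 and 0.007. Without microsphere keratin array 1 that difference was -0.04. All 3 intervals span 0.

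The authors' deposited table gave the same direction for the number 1 arrays at a larger size, Sult1a1 being 6.52-fold higher with keratin and 8.05-fold higher with microsphere keratin. No Sult1a1 entry stood in the authors' deposited tables of the number 2 arrays, which list only folds of 1.3 and above. The microsphere keratin and keratin groups differed by 0.16 on the log2 scale (SE 0.38, interval -0.70 to 1.02), with 0.38 between the number 1 arrays and -0.05 between the number 2 arrays.

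Other sulfation genes did not pass the test. Of the 20 genes on the sulfation list 15 were named and 10 tested, with 0 past the test in either direction in any comparison. With minoxidil 7 of the 10 were higher and 3 lower, with a median log2 difference of 0.01 beside -0.02 over all genes. With keratin 8 were higher and the median was 0.22 beside 0.10 over all genes, and with microsphere keratin 10 were higher at a median of 0.10, equal to that of all genes. In the number 2 arrays alone 6, 6 and 7 of the 10 were higher with minoxidil, keratin and microsphere keratin. The medians there were 0.03, 0.06 and 0.05, beside 0.03, 0.02 and 0.02 over all genes. Papss1 and Papss2 make the sulfate donor that all sulfotransferases use. Papss1 read 64.4 and 69.3 with minoxidil, 95.6 and 65.2 with keratin and 80.5 and 81.5 with microsphere keratin, against 57.5 and 75.5 in untreated skin. Papss2 read 49.3 and 46.7 in minoxidil skin, against 47.6 and 39.0 in untreated skin, a log2 difference of 0.16 ± 0.21 (SE). Sult2b1, a cholesterol sulfotransferase of epidermis, differed by -0.05 ± 0.20 with minoxidil, 0.27 ± 0.20 with keratin and 0.06 ± 0.20 with microsphere keratin (SE). Sult5a1 had the largest keratin difference of the list, 0.34 ± 0.23 (SE). Impad1, which encodes a phosphatase of a sulfation by-product, had the largest minoxidil difference, -1.16 ± 0.93 (SE), with -2.22 in the number 1 arrays and -0.11 in the number 2 arrays. Sult1e1 was not analysed here.

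The genes most like Sult1a1 over the 7 arrays other than minoxidil array 1 were Plpp3 (r = 0.99), Pdlim4 (r = 0.99) and Fxyd5 (r = 0.99). Spearman's rho was 0.96, 0.82 and 0.75 for them. Over all 8 arrays r was 0.82, 0.96 and 0.92, and without keratin array 1 and microsphere keratin array 1 it was 0.89, 0.64 and 0.16 over the remaining 5. The likeness to Pdlim4 and Fxyd5 rests largely on those arrays. The same arrays were also highest for summed fibroblast, macrophage and endothelium markers. The summed intensity of 9 fibroblast markers, none of them at 0, was 1571 in keratin array 1 and 1714 in microsphere keratin array 1, against 456 to 1137 elsewhere. The sum of 7 macrophage markers, none at 0, was 701 and 623 on those arrays, against 313 to 378 elsewhere. The sum of 5 endothelium markers, none at 0, was 221 and 214, against 179 to 197 elsewhere. Single markers could differ: Pi16, of fibroblasts, read 48.7 in keratin array 1 and 57.7 in untreated array 1. Kdr, of endothelium, was highest in minoxidil array 1. The part of these cell types in the Sult1a1 values was not tested, and in whole skin fewer cells of a type and less RNA per cell cannot be told apart.

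Abcc9, the sulfonylurea receptor of muscle-type channels, varied more between arrays of a group than between groups. It read 42.8 and 157 in minoxidil skin, 61.7 and 151 in keratin skin and 111 and 84.1 in microsphere keratin skin, against 54.7 and 142 in untreated skin. The values of all 4 groups overlapped, and array 2 exceeded array 1 except with microsphere keratin. Array 2 was above array 1 by 1.88 on the log2 scale with minoxidil, 1.29 with keratin and 1.38 in untreated skin, and the microsphere keratin difference was -0.40. Group differences were small beside this spread, at -0.10 ± 0.75 with minoxidil, 0.13 ± 0.75 with keratin and 0.13 ± 0.75 with microsphere keratin (SE, 2 arrays each). The residual SD of Abcc9 was 0.95, above that of the other 4 genes, which had 0.08 to 0.45.

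Leaving out minoxidil array 1 moved the minoxidil difference of Abcc9 to 0.84, and leaving out untreated array 1 as well brought it to 0.15. For microsphere keratin the same-numbered arrays went opposite ways, 1.02 for number 1 and -0.76 for number 2. Against keratin the microsphere keratin difference was 0.003, with 0.85 and -0.84 in the number 1 and number 2 arrays. The authors' deposited table had the same signs, with Abcc9 13.31-fold higher for microsphere keratin array 1 and a signed fold of -2.18 for microsphere keratin array 2, where a minus sign means lower in the treated sample. The authors' deposited table for keratin array 1 had Abcc9 5.48-fold higher.

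There were 3 Abcc9 probesets, and the one kept carries a suffix that marks probes shared by several transcripts. The second probeset read 33.2 and 70.5 with minoxidil, 38.3 and 67.0 with keratin, 48.9 and 45.8 with microsphere keratin, and 38.5 and 63.5 untreated. Its differences from untreated were -0.03 with minoxidil, 0.04 with keratin and -0.06 with microsphere keratin. The third, the dimmest, read 32.0 to 45.6 over the 8 arrays and differed by 0.12, 0.08 and -0.03. It was below the highest nonspecific control probeset on every array. Minoxidil array 2 was the highest array for all 3 probesets.

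The array order of Abcc9 was the same as that of skeletal muscle genes. The summed intensity of 10 skeletal muscle markers, none at 0, was 333 and 18800 in minoxidil skin, 5426 and 17960 in keratin skin, 12320 and 9942 in microsphere keratin skin, and 3121 and 17160 in untreated skin. Ranked from highest to lowest, the 8 arrays stand in the same order for this sum as for Abcc9. The 3 genes most like Abcc9 over 7 arrays were Cacna2d1, Tmem38a and Jsrp1, with r = 0.998, 0.996 and 0.996 and rho = 1.00, 0.96 and 0.96. Over all 8 arrays r was 1.00, 0.97 and 0.96, and over 5 arrays without keratin array 1 and untreated array 1 it was 0.99 for each. Of 11234 genes 237 had r above 0.95 with Abcc9. The 10 muscle markers had a median r of 0.96 with Abcc9 over 7 arrays, against 0.44 for smooth muscle and pericyte markers, -0.41 for fibroblast markers and -0.32 for macrophage markers. All such values share the same arrays, and they are given as a description. The part of skeletal muscle in the Abcc9 values was not tested.

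**Figure D2:**
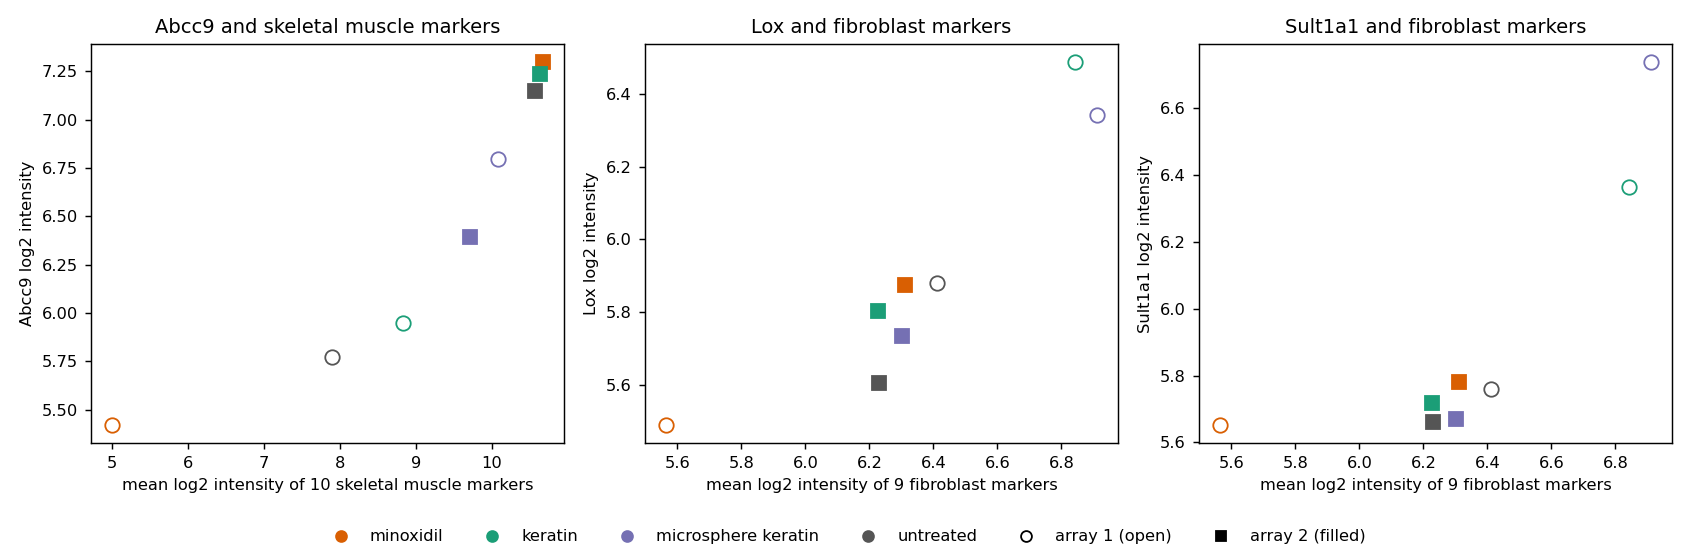
Log2 intensity (vertical axes) of Abcc9, Lox and Sult1a1 on each array against the mean log2 intensity of 10 skeletal muscle or 9 fibroblast markers (horizontal axes), coloured by group; open circles are array 1 and filled squares array 2. Abcc9 climbs with the muscle markers over all 8 arrays, while keratin array 1 and microsphere keratin array 1 lie apart at the upper right for Lox and Sult1a1.

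Kcnj11, the pore subunit best known from pancreatic beta cells and skeletal and heart muscle, was nearly level. It read 73.7 and 72.1 in minoxidil skin, 77.3 and 79.6 in keratin skin and 62.2 and 72.6 in microsphere keratin skin, against 73.7 and 74.1 in untreated skin. Both keratin arrays were above, and both microsphere keratin arrays below, the untreated arrays. Not overlapping was common among all genes tested: minoxidil and untreated arrays did not overlap for 11.9% of genes, keratin and untreated for 25.2%, microsphere keratin and untreated for 19.9%, and microsphere keratin and keratin for 15.6%. Kcnj11 was among them in the last 3 comparisons, and Plod2 in the last, while Sult1a1, Abcc9 and Lox overlapped in all 4.

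The minoxidil difference of Kcnj11 was -0.02 on the log2 scale (SE 0.28, 95% interval -0.67 to 0.63), and -0.04 without minoxidil array 1. With keratin it was 0.09 (interval -0.56 to 0.74), and with microsphere keratin -0.14 (interval -0.79 to 0.51). Microsphere keratin lay 0.22 below keratin, a log2 difference of -0.22 ± 0.28 (SE, interval -0.87 to 0.43), with -0.31 and -0.13 in the number 1 and number 2 arrays. The SE exceeds the residual SD of Kcnj11 itself, 0.08, because limma moderates it toward genes of like intensity. After quantile normalization the minoxidil difference was 0.21 and the keratin difference -0.12, so neither direction was held. The authors' deposited table for keratin array 1 had Kcnj11 3.10-fold higher. For microsphere keratin array 1 the authors' deposited table had it 2.03-fold higher, opposite in sign to the -0.24 of the value table. This was the exception among 26 entries of the 5 genes in the authors' deposited tables, of which 25 had the same sign as the value table. Those entries come from the same arrays and list only probesets past a minimum fold, so the shared sign is no independent support.

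Kcnj11 and Abcc9 did not share an array pattern. The gene most like Kcnj11 over 7 arrays was Faim2 (r = 0.99, rho = 0.96, and r = 0.81 over 8 arrays). The next were 5730508B09Rik (r = 0.949, rho = 0.71) and Neto1 (r = 0.948, rho = 0.86), whose r over 8 arrays was 0.40 and 0.25. Without keratin array 2 and microsphere keratin array 1 the r values were 0.94, 0.22 and 0.81. Of 11234 genes 1, Faim2, had r above 0.95 with Kcnj11. The skeletal muscle markers had a median r of -0.10 with Kcnj11 over 7 arrays.

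Of 4 genes on the channel subunit list, 3 were named and 2 tested. In RefSeq's gene table, assembly GRCm38.p6, they form pairs of neighbours, Kcnj11 beside Abcc8 and Kcnj8 beside Abcc9, each with 0 protein-coding genes between. Abcc8, the receptor of beta-cell channels, read 33.3 and 33.5 with minoxidil, 33.7 and 34.4 with keratin and 32.0 and 34.9 with microsphere keratin, against 35.7 and 38.3 in untreated skin. Abcc8 was below the filter and was not tested. All 6 treated arrays were below both untreated ones, where 11.9%, 25.2% and 19.9% of tested genes did not overlap in the 3 comparisons. On every array Abcc8 read below the highest nonspecific control probeset, which was 38.9 to 57.0. For the array 2 comparisons the authors' deposited tables listed a signed fold of -1.42 for Abcc8 with minoxidil, -1.31 with keratin and -1.4 with microsphere keratin. These folds share untreated array 2. Kcnj8 was not analysed here. Of 13 other inward rectifier channels 8 were named and 1 passed the filter, Kcnj9. Its differences were -0.006 ± 0.11 with minoxidil, -0.02 ± 0.11 with keratin and 0.07 ± 0.11 with microsphere keratin (SE). Kcnj9 also read below the highest nonspecific control probeset on every array.

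**Figure D3:**
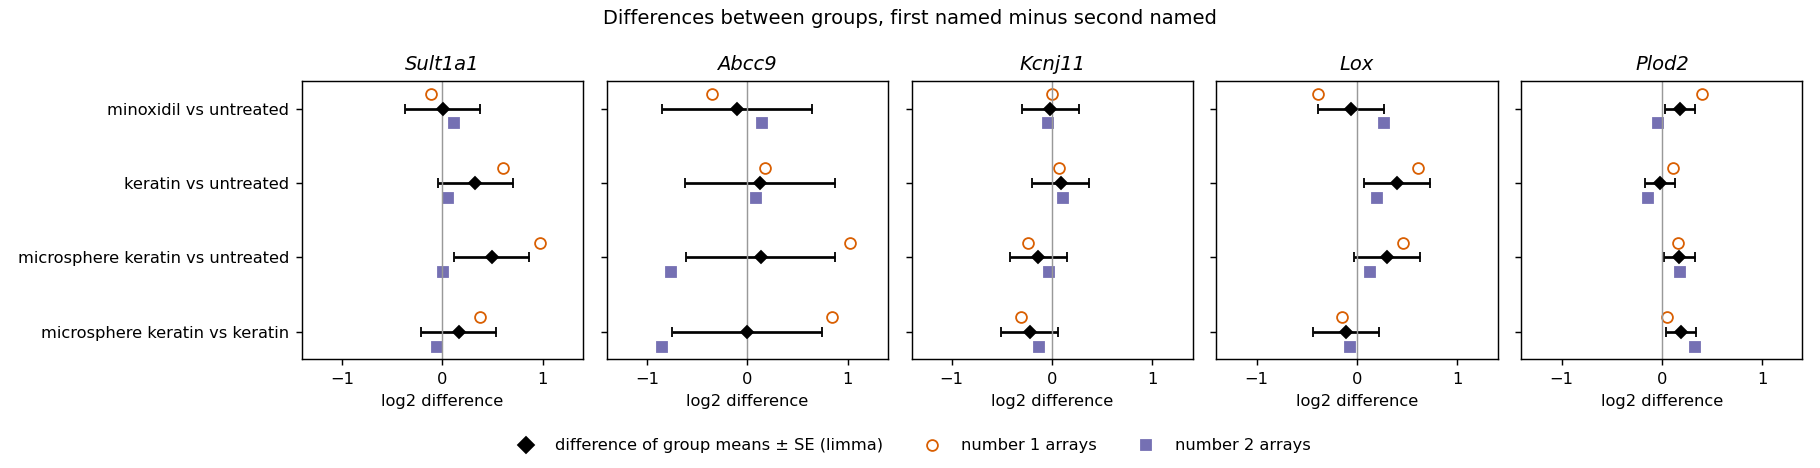
Log2 differences (horizontal axis) of the 5 genes in 4 comparisons, first named group minus second named; black diamonds with bars are the difference of group means ± SE from limma, open circles the difference between the number 1 arrays and squares that between the number 2 arrays. For Abcc9 the circles and squares fall on opposite sides of 0 in both microsphere keratin comparisons, at 1.02 and -0.76 and at 0.85 and -0.84.

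Lox, the lysyl oxidase that starts crosslinking of collagen and elastin, was highest on the same 2 arrays as Sult1a1. It read 44.96 and 58.7 in minoxidil skin, 89.7 and 55.9 in keratin skin and 81.1 and 53.3 in microsphere keratin skin, against 58.9 and 48.7 in untreated skin. All treated groups overlapped with the untreated one. The keratin difference was 0.40 on the log2 scale (SE 0.33, 95% interval -0.35 to 1.15), a 1.32-fold higher mean, with 0.61 and 0.20 in the number 1 and number 2 arrays, and it was 0.061 without keratin array 1. The microsphere keratin difference was 0.29 (SE 0.33, interval -0.46 to 1.05), a 1.23-fold higher mean, with 0.46 and 0.13. Without microsphere keratin array 1 it was -0.008. The minoxidil difference was -0.06 (SE 0.33, interval -0.81 to 0.69), with -0.39 and 0.27, and it was 0.13 without minoxidil array 1. Microsphere keratin and keratin differed by -0.11 (SE 0.33, interval -0.86 to 0.64).

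A second Lox probeset read 53.4 and 48.7 with minoxidil, 60.8 and 44.4 with keratin and 57.5 and 45.01 with microsphere keratin, against 41.6 and 43.7 untreated. On this probeset both arrays of each treatment were above both untreated arrays, which was not so on the first, and the minoxidil difference was 0.26. Its keratin and microsphere keratin differences were 0.29 and 0.26, with 0.02 and 0.04 in the number 2 arrays. Over all tested genes 11.9%, 25.2% and 19.9% did not overlap with untreated for minoxidil, keratin and microsphere keratin. On all number 2 arrays and untreated array 1 the second probeset read below the highest nonspecific control probeset, which was 47.9 to 57.0 there. The authors' deposited tables had the first Lox probeset 4.37-fold higher for keratin array 1, 4.62-fold for microsphere keratin array 1, 1.83-fold for minoxidil array 2 and 1.64-fold for keratin array 2. Within the number 2 arrays, the more uniform set, minoxidil skin thus had the highest Lox of the first probeset and untreated skin the lowest.

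Lox was highest on keratin array 1 and microsphere keratin array 1, as were the fibroblast and macrophage marker sums given for Sult1a1. Over 7 arrays the median r with Lox was 0.88 for the 9 fibroblast markers and 0.94 for the 6 macrophage markers tested. Sult1a1 had 0.85 and 0.91. For the 3 endothelium markers tested the median r was 0.75 with Lox and 0.74 with Sult1a1. For the 4 adipocyte markers it was 0.68 and 0.52. These medians were not computed without keratin array 1 and microsphere keratin array 1, so how far they rest on those arrays is not known. The genes most like Lox were Fam101b (r = 0.99, rho = 1.00), Nubp1 (r = 0.99, rho = 1.00) and Sh3pxd2a (r = 0.99, rho = 0.96). Their r over 8 arrays was 0.98, 0.99 and 0.84, and without keratin array 1 and microsphere keratin array 1 it was 0.91, 0.94 and 0.87 over 5. The part of these cell types in the Lox values was not tested.

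Among the relatives of Lox, Loxl1, which crosslinks elastic fibres, read 35.4 and 46.7 with minoxidil, 51.4 and 44.9 with keratin and 44.9 and 40.6 with microsphere keratin, against 39.9 and 47.1 untreated. Its differences were -0.09 ± 0.18, 0.15 ± 0.18 and -0.02 ± 0.18 (SE). Loxl1 read below the highest nonspecific control probeset on every array. Loxl4 read 29.2 to 36.4, highest in untreated array 1, and was below the filter. Loxl2 and Loxl3 were not analysed here, so 2 of the 5 family members were tested and 0 passed.

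Plod2, the hydroxylase of lysines at the ends of collagen chains, was dim and differed little. It read 46.6 and 41.2 in minoxidil skin, 38.1 and 38.4 in keratin skin and 39.5 and 48.2 in microsphere keratin skin, against 35.4 and 42.4 in untreated skin. All treated groups overlapped with untreated, and both microsphere keratin arrays were above both keratin arrays. On 1 of the 8 arrays, minoxidil array 1, Plod2 exceeded the highest of 23 nonspecific control probesets, and on all 8 it exceeded their median. Sult1a1 and Lox exceeded the highest on 7 arrays each, and Abcc9 and Kcnj11 on 8. So close to nonspecific intensities, a log2 difference can understate a change in RNA.

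The minoxidil difference of Plod2 was 0.18 on the log2 scale (SE 0.15, 95% interval -0.17 to 0.53), with 0.40 between the number 1 arrays and -0.04 between the number 2 arrays. Without minoxidil array 1 it was 0.09, and without untreated array 1 as well it was -0.04. The keratin difference was -0.02 (SE 0.15, interval -0.37 to 0.33) and the microsphere keratin difference 0.17 (SE 0.15, interval -0.18 to 0.52), with 0.16 and 0.18 in the 2 pairs. Microsphere keratin exceeded keratin by 0.19 (SE 0.15, interval -0.16 to 0.54), with 0.05 and 0.33. The second Plod2 probeset read 35.8 and 42.6 with minoxidil, 40.0 and 39.3 with keratin and 35.4 and 45.2 with microsphere keratin, against 34.8 and 44.3 untreated. Its differences were -0.007, 0.01 and 0.03, so the minoxidil and microsphere keratin differences of the first probeset were not seen on it. The authors' deposited tables listed the first probeset at 2.30-fold and 1.51-fold higher for microsphere keratin arrays 1 and 2, and at a signed fold of -1.44 for keratin array 2. Minoxidil array 2 had no Plod2 entry in them.

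Genes most like Plod2 over 7 arrays were Dach1 (r = 0.98, rho = 0.89), Cnnm4 (r = 0.98, rho = 0.96) and Hoxb5os (r = 0.98, rho = 1.00). Over 8 arrays their r was 0.54, 0.78 and 0.98, and over 5 arrays, without untreated array 1 and microsphere keratin array 2, it was 0.88, 0.96 and 0.98. Fibroblast markers had a median r of -0.33 with Plod2, unlike with Lox. Plod1, another lysyl hydroxylase, read 28.2 and 35.5 with minoxidil, 42.0 and 35.6 with keratin, 35.1 and 33.7 with microsphere keratin, and 26.5 and 34.8 untreated, and was below the filter. Plod3 was not analysed here.

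Around Plod2, 6 of the 10 genes of lysyl hydroxylation and glycosylation of collagen were tested and 0 passed in either direction. The number 2 arrays had 2, 3 and 3 of the 6 higher with minoxidil, keratin and microsphere keratin. Their medians were -0.04, -0.01 and 0.002, beside 0.03, 0.02 and 0.02 over all genes. By group means, higher than untreated were 4 of 6 with minoxidil, 5 with keratin and 6 with microsphere keratin, at median log2 differences of 0.10, 0.06 and 0.15, beside -0.02, 0.10 and 0.10 over all genes. Fkbp10, a chaperone that assists Plod2, differed by 0.24 ± 0.16 with minoxidil, 0.08 ± 0.16 with keratin and 0.10 ± 0.16 with microsphere keratin (SE), and the minoxidil value was 0.52 in the number 1 and -0.04 in the number 2 arrays. Ppib, a prolyl isomerase of collagen folding, had the largest minoxidil difference of the list, -1.46 ± 0.96 (SE), with -2.85 in the number 1 and -0.08 in the number 2 arrays. With microsphere keratin it differed by 0.28 ± 0.96 (SE). Tmem38b, an ion channel of the endoplasmic reticulum, differed by 0.27 ± 0.47 (SE) with minoxidil. P3h4, a scaffold of a lysyl hydroxylase complex, differed by 0.21 ± 0.13 (SE) with microsphere keratin. P3h4 read below the highest nonspecific control probeset on every array.

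Other genes of collagen processing were higher with both keratin preparations mainly in the number 1 arrays. Of 17 genes 10 were tested and 0 passed. With keratin 10 of 10 were higher at a median of 0.33, and with microsphere keratin 9 of 10 at 0.33, where 75.8% of all genes were higher in either comparison. In the number 2 arrays 5 of 10 were higher with keratin and 7 of 10 with microsphere keratin. The medians there were 0.02 and 0.13, beside 0.02 over all genes in both. The number 1 differences all use untreated array 1, which stood apart. Without that array the median over all genes went from 0.10 to -0.02 with keratin. With microsphere keratin it went from 0.10 to -0.03. The medians of this list were not recomputed without it. With minoxidil 3 of 10 were higher at a median of -0.08, where 45.7% of all genes were higher. Without minoxidil array 1 the median was 0.20, beside 0.155 over all genes. Serpinh1, the collagen chaperone, read 50.01 and 121 with minoxidil, 201 and 90.1 with keratin and 190 and 144 with microsphere keratin, against 85.3 and 131 untreated. Its differences were -0.44 ± 0.65, 0.35 ± 0.65 and 0.65 ± 0.65 (SE). Pcolce, which enhances procollagen cleavage, differed by -0.25 ± 0.53, 0.46 ± 0.53 and 0.79 ± 0.53 (SE), and P4hb, a subunit of prolyl hydroxylase, by -0.25 ± 0.70, 0.56 ± 0.70 and 0.70 ± 0.70 (SE). In the number 2 arrays the minoxidil differences of Pcolce and P4hb were 0.19 and 0.14. The prolyl hydroxylases P4ha1 and P4ha2 differed by 0.10 ± 0.16 and 0.18 ± 0.23 with keratin (SE). Both read below the highest nonspecific control probeset on every array.

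The type I and type III collagen genes, substrates of Lox and Plod2, did not pass either. Col1a1, a chain of type I collagen, read 30.6 and 285 in minoxidil skin, 522 and 183 in keratin skin and 578 and 247 in microsphere keratin skin, against 144.5 and 144.5 in untreated skin. Both arrays of each keratin group were above both untreated arrays, and the minoxidil arrays lay on either side. The log2 differences were -0.63 ± 1.15, 1.10 ± 1.15 and 1.39 ± 1.15 (SE). Col1a2, the partner chain, differed by -1.21 ± 1.33, 0.80 ± 1.33 and 0.76 ± 1.33, and Col3a1, of type III collagen, by -1.43 ± 1.41, 0.32 ± 1.41 and 0.62 ± 1.41 (SE). In the number 2 arrays the minoxidil differences of Col1a1, Col1a2 and Col3a1 were 0.98, 0.76 and 0.58. Eln, the elastin gene, read 39.5 and 46.4 with minoxidil, 44.9 and 41.3 with keratin and 43.7 and 40.4 with microsphere keratin, against 36.3 and 39.5 untreated. Among treated arrays only minoxidil array 1 failed to exceed both untreated arrays. The Eln differences were 0.18 ± 0.14, 0.19 ± 0.14 and 0.15 ± 0.14 (SE). On every array but minoxidil array 1, Eln read below the highest nonspecific control probeset. Of all genes 25.2% with keratin and 19.9% with microsphere keratin did not overlap with untreated.

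Of 9 substrate genes 7 were tested and 0 passed. With keratin and microsphere keratin 7 of 7 were higher, at medians of 0.32 and 0.42. In either comparison 75.8% of all genes were higher, at a median of 0.10. In the number 2 arrays 4 and 6 of 7 were higher, at medians of 0.06 and 0.05, beside 0.02 over all genes in both. The number 1 differences use untreated array 1, which stood apart, and the medians were not recomputed without it. With minoxidil 1 of 7 was higher at a median of -0.31, beside -0.02 over all genes. In the number 2 arrays 7 of 7 were higher at a median of 0.23, beside 0.03 over all genes. Without minoxidil array 1 the median was 0.26, beside 0.155 over all genes. The sign for minoxidil therefore turns on array 1, the array with low beta-actin. The fibroblast marker sum on that array was 456, against 953 on minoxidil array 2. Between microsphere keratin and keratin the median was -0.03, with 3 of 7 higher.

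**Figure D4:**
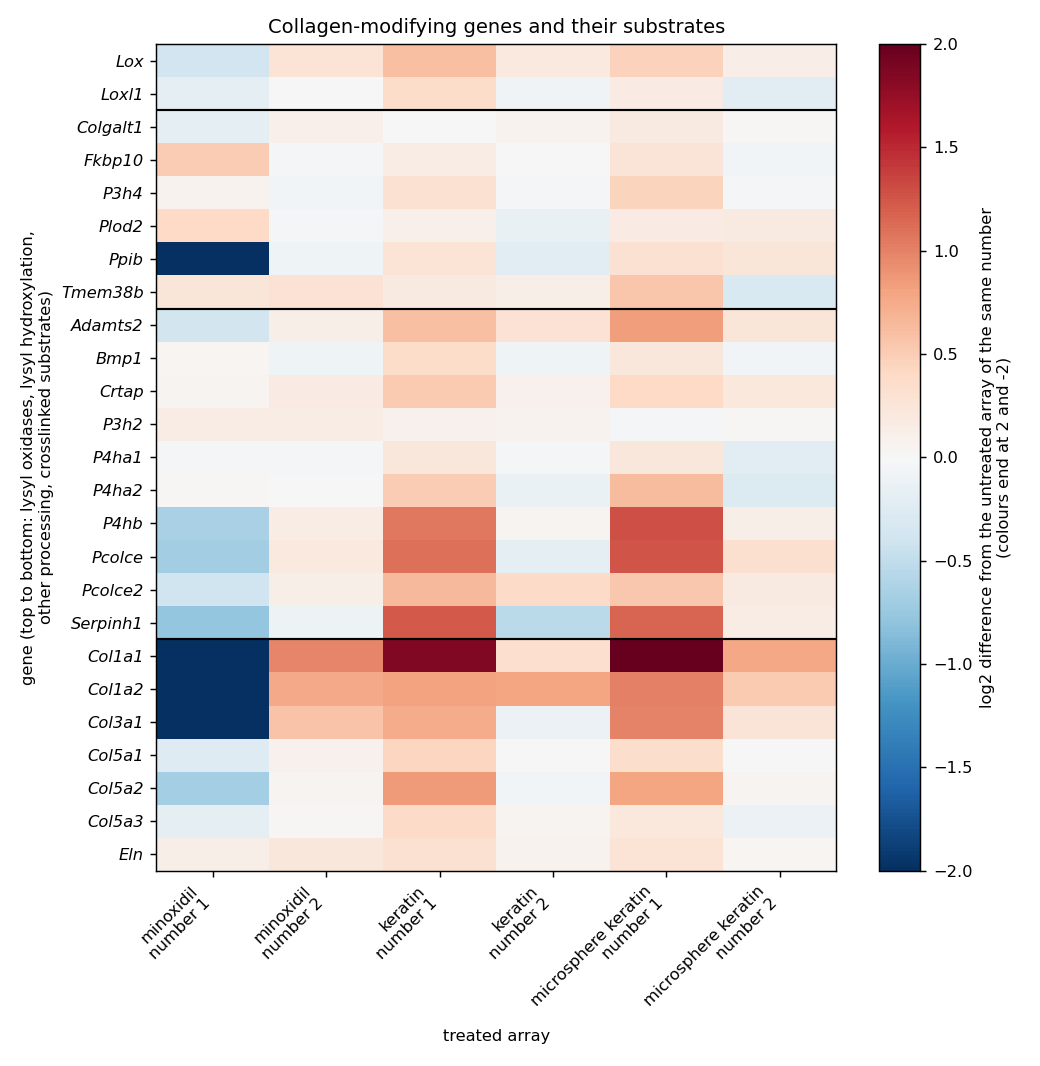
Log2 difference of each treated array from the untreated array of the same number (columns) for tested lysyl oxidases, lysyl hydroxylation genes, other collagen processing genes and crosslinked substrates (rows, top to bottom); red is higher and blue lower than untreated. The columns of keratin array 1 and microsphere keratin array 1 are mostly red, and that of minoxidil array 1 is blue for Col1a1, Col1a2, Col3a1 and Ppib. The number 2 columns are paler for most genes, with Eln and Tmem38b in the minoxidil columns among the exceptions. Col1a1, Col1a2 and, in keratin array 2, Serpinh1 (-0.54) keep some colour there.

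Lox, Plod2 and P4ha1 are also known as genes induced by low oxygen. On the hypoxia response list, which leaves Lox and Plod2 out, 12 of 15 genes were tested and 0 passed. With minoxidil 3 of 12 were higher at a median of -0.13, beside -0.02 over all genes. Without minoxidil array 1 the median was 0.40, beside 0.155 over all genes. With keratin 10 of 12 were higher at 0.15 and with microsphere keratin 8 of 12 at 0.07, beside 0.10 over all genes. In the number 2 arrays 8, 3 and 4 of 12 were higher with minoxidil, keratin and microsphere keratin. The medians there were 0.14, -0.04 and -0.23, beside 0.03, 0.02 and 0.02 over all genes. Ndrg1 had the largest minoxidil difference, -0.88 ± 0.49 (SE), with -1.61 in the number 1 and -0.16 in the number 2 arrays. Bnip3 had the largest keratin difference, 0.59 ± 0.87 (SE). Ldha, Pgk1 and Hk2 had nearly the array order of the skeletal muscle sum, but Slc2a1 and Ndrg1 were highest in untreated array 1. The medians of the skeletal muscle markers in the number 2 arrays were 0.09, 0.07 and -0.79. The part of skeletal muscle in the hypoxia list was not tested.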

How the data were processed

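RNA of skin and hair follicle was measured on Affymetrix arrays, named HT_MG-430_PM per the file headers. The submitters' processing notes name RMA, Affymetrix Expression Console and Transcriptome Analysis Console. The deposited values are linear intensity, 45141 probesets on 8 arrays, with array medians of 35.9 to 37.7. How background was corrected and arrays were scaled is not given in the sources used here. The authors' deposited comparison tables hold log2 values per sample, a signed fold (a score, negative where the treated sample is lower) and, in 1 table, a p-value. The table named for minoxidil array 1 repeats all 9387 rows of microsphere keratin array 1, so no authors' values were used for minoxidil array 1. Their folds for the number 2 arrays are on a wider scale than the value table. For the number 1 arrays the authors' folds and the value table differ in more than scale. With keratin array 1 the authors' log2 difference was 2.45 for Abcc9 and 1.64 for Kcnj11, beside 0.17 and 0.07 in the value table. Untreated array 1 read 0.62 and 0.83 for these genes in the authors' log2 values.

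Gene names came from these tables (23804 probesets with 1 symbol, 14980 genes), which list only probesets past a minimum fold between these arrays, so naming depended on the same data. Intensities were put on the log2 scale, the brightest probeset stood for its gene, and those whose mean was not under the 25th percentile entered the test with limma 3.58.1 in R 4.3.3 (4 group means, intensity trend, 4 residual degrees of freedom, Benjamini-Hochberg threshold 0.05). Precision is limited by the number of arrays. The fit was tested on simulated data. Genes named were the 5 members, fixed relatives, up to 3 genes per list and comparison with the largest difference, and the 3 genes most like each member by Pearson's r. Kcnj9 and the marker genes Krt5, Krt14 and Acta1 illustrate their lists. Members and lists were chosen with earlier results of these data known. Alternatives covered scaling, filters, probeset choice, variance model, array weights, the replicate number as a block and left-out arrays. Figures used matplotlib 3.10.9.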

Additional observations from a re-analysis of the deposited data

How the results depend on the processing

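The 20 differences of the 5 genes were recomputed under 18 alternatives, giving 356 values. Of these 319 kept their direction, 37 reversed it and 0 passed the threshold. Many of the 319 were unchanged values. Either change of filter, no intensity trend, array weights and the replicate block left every tested difference as it was. So did leaving out arrays of groups outside the comparison. The values free to move were not counted, so 319 of 356 does not measure how stable the directions were. The filter at the median left Plod2 untested. No gene at all was called by limma in any comparison under any alternative, except without minoxidil array 2, which left minoxidil array 1 to stand for its group: 860 genes for minoxidil against untreated and 163 in the F test (ranges over arrays left out 0 to 860 and 0 to 163). The lone array is there assumed to vary like the other groups. The cause of the reversals was not tested.

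For minoxidil against untreated, quantile normalization gave -0.023 for Sult1a1 and 0.21 for Kcnj11, normexp background correction -0.009 for Sult1a1, and the mean of all probesets 0.10 for Lox. With minoxidil array 1 and untreated array 1 both left out, Abcc9 was 0.15, Lox 0.27 and Plod2 -0.041. Leaving out arrays singly gave -0.059 to 0.069 for Sult1a1, -1.04 to 0.84 for Abcc9 and -0.25 to 0.13 for Lox. For keratin against untreated, quantile normalization gave -0.014 for Abcc9 and -0.12 for Kcnj11, normexp 0.006 for Plod2, and leaving out minoxidil array 1 and untreated array 1 together -0.56 for Abcc9. Single arrays left out gave -0.56 to 0.82 for Abcc9 and -0.15 to 0.11 for Plod2. For microsphere keratin against untreated, Abcc9 was -0.01 after quantile normalization and -0.56 without minoxidil array 1 and untreated array 1, and single arrays left out gave -0.56 to 0.82 for it, -0.043 to 1.03 for Sult1a1 and -0.008 to 0.60 for Lox. For microsphere keratin against keratin, Abcc9 was -0.017 with normexp and -0.07 with the mean of all probesets, and single arrays left out gave -0.64 to 0.65 for it, -0.37 to 0.70 for Sult1a1 and -0.45 to 0.23 for Lox.

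The replicate number as a block left every difference as it was, for example 0.40 for Lox with keratin, and 0 genes called; without minoxidil array 1 the block gave 0.46 for Abcc9, 0.39 for Lox and -0.004 for Plod2 with minoxidil. Deviations of same-numbered arrays correlated at 0.11 to 0.59 between groups, but only 2 numbers exist and the labels do not say that they pair samples.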
